A study of Homo sapiens with 18 samples.

Results

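The CDK inhibitor genes CDKN1A, CDKN1B, CDKN1C, CDKN2A, CDKN2B, CDKN2C, CDKN2D and CDKN3 were taken by symbol from the deposited RNA-seq tables of bladder cancer cells, where they are 8 of 39496 genes. UM-UC-3 and T24, established lines labelled as human bladder transitional cell cancer cells, were each transfected with a control siRNA (siNC, genotype WT) or with siACAT1-1 or siACAT1-2, siRNAs against ACAT1, the mitochondrial acetyl-CoA acetyltransferase (genotype ACAT1 knockdown). The 6 groups had 3 libraries each, labelled as biological replicates. T24 cells were grown in RPMI-1640 and UM-UC-3 cells in MEM, so the cell line and its medium cannot be told apart. All 8 genes passed the filter on low counts, CDKN2A and CDKN2B only through their T24 counts.

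CDK inhibitors slow the cell cycle by binding cyclin-dependent kinases or their cyclins. The INK4 members, p16INK4a (CDKN2A), p15 (CDKN2B), p18 (CDKN2C) and p19 (CDKN2D), bind CDK4 and CDK6 and keep RB active, and CDKN2A also encodes p14ARF, which restrains the ubiquitin ligase MDM2. The Cip/Kip members, p21 (CDKN1A), p27 (CDKN1B) and p57 (CDKN1C), inhibit several cyclin-CDK complexes, whereas CDKN3 encodes a phosphatase that removes an activating phosphate from CDK2 and CDK1 and is itself made mostly in dividing cells. The chromosome 9p21 interval with CDKN2A, CDKN2B and their neighbour MTAP is often lost in urothelial cancer.

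Sequences are shown for the pair of 9p21 genes whose RNA separated the cell lines and for CDKN3, the member with the clearest change after ACAT1 siRNA. They were taken from RefSeq start-site windows on GRCh38.p14, of which 7 of the 8 members had at least 1. Each stretch ends where the member's own exons in the count table begin or at the RefSeq start. The CDKN2A stretch holds exon bases of another gene, RP11-149I2.4, on the other strand. Capitals mark GGGCGG (the GC box) in CDKN2A and CDKN2B, and CCAAT and the cell cycle homology region TTTGAA in CDKN3, searched on both strands. The CDKN2A stretch lies at chr9:21995325-21995574 on the minus strand, before the p14ARF start, CDKN2B at chr9:22009364-22009555 on the minus strand, and CDKN3 at chr14:54396757-54396848 on the plus strand.
CDKN2A: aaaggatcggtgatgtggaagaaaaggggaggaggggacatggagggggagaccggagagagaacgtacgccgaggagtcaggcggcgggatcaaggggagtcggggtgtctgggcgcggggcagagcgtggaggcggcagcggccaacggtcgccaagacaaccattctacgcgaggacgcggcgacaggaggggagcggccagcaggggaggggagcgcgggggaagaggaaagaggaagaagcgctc
CDKN2B: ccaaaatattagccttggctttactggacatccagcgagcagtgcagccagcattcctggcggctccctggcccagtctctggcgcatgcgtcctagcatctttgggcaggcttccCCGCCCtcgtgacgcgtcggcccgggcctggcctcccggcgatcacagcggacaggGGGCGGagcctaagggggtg
CDKN3: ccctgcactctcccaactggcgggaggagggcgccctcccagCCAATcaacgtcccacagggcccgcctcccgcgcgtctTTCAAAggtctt

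The CDKN2B stretch held 2 GC boxes, beginning 134 and 78 bases before the RefSeq start, and the CDKN2A stretch before the p14ARF start held no GGGCGG. The window at the other RefSeq start of CDKN2A, at position 21974857 and not printed, held 2, beginning 37 bases before that start and 13 bases after it. Of 35116 RefSeq windows of 300 bases, 45.0% held a GC box. CDKN3 was the only member with TTTGAA or TTCGAA in a window, 170 bases before its start, and 16.4% of all windows held one of them. The CCAAT shown began 208 bases before the start, and 34.6% of all windows held CCAAT. No member's window held the letters TTTCCCGC or TTTGGCGC (E2F) or TATAAA. These matches describe letters and were not tested as binding sites.

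The libraries had 25163490 to 34417230 counted reads. ACAT1 fell from 44.1 to 47.4 RPKM with siNC to 1.83 to 3.59 RPKM with either siRNA in UM-UC-3 cells, and from 14.6 to 17.1 RPKM to 0.671 to 1.46 RPKM in T24 cells. RPKM are counts scaled to the gene length and to the total of counted reads. Genes were called at an adjusted p under 0.05 in edgeR's quasi-likelihood test. Libraries of the same replicate number within a cell line deviated together, though in UM-UC-3 their correlations overlapped those of different numbers. Results of the members with the number as a replicate block therefore stand beside those without it where the call differs. The p-values measure the spread between these libraries, and from bulk RNA fewer cells with a transcript and less RNA per cell cannot be told apart. Of 16 urothelial markers in the table, 10 passed the filter and 6 were lower in UM-UC-3 with siNC (8 with the block). Of all 20144 genes tested, 4499 were lower there (6077 with the block). EPCAM, with 0 to 8 counts in a UM-UC-3 library and 48 to 192 in T24, passed the filter only through T24. KRT19 was near the floor in UM-UC-3, with 4 to 12 counts against 110 to 2080. For such markers a lower level in UM-UC-3 follows largely from how they entered the test. PPARG stood at 0.0876 to 0.448 RPKM over the 9 UM-UC-3 libraries and 2.90 to 6.23 RPKM in T24. UPK1A lay mostly higher in UM-UC-3, at 0.130 to 0.436 RPKM against 0 to 0.157 in T24. Mesenchymal markers went both ways. SNAI2 had 0.373 to 1.77 RPKM in UM-UC-3 and 15.4 to 90.8 in T24, and ZEB1 had 26.3 to 48.8 and 10.4 to 19.1. Neither line had more than 6 counts of CDH1 in any library, and UPK1B and UPK3A had 2 counts at most.

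CDKN2A and CDKN2B were present in T24 cells and nearly without counts in UM-UC-3 cells, along with their neighbours from MTAP to DMRTA1. CDKN2A (chr9:21967753-21995301, minus strand) stood at 7.97, 5.04 and 10.4 RPKM in the T24 siNC libraries of replicates 1, 2 and 3. The siACAT1-1 libraries of T24 had 7.31, 3.77 and 7.12 RPKM, and the siACAT1-2 libraries 6.14, 3.04 and 6.90 RPKM. In UM-UC-3 cells 7 of 9 libraries had no CDKN2A count, and replicates 1 and 2 of siACAT1-1 had 2 counts each. The lines did not overlap. With siNC, 3062 counts in T24 stood against 0 in UM-UC-3. With 3 counts over the UM-UC-3 group taken as the limit, CDKN2A was at least 1027-fold higher in T24. With a limit of 6 it was at least 514-fold higher. No p-value is printed for CDKN2A between the lines, because it passed the filter only through T24, where it is high. With siACAT1-1 the ratio of T24 to UM-UC-3 was 572 (95% counting interval 223 to 2100). That interval rests on 4 UM-UC-3 counts, takes counts as independent and leaves out the spread between libraries. It would be wider if mates of a pair were counted singly. The gene's count joins the transcripts of p16INK4a and p14ARF, and 341 of its exon bases (7.88%) are shared with CDKN2B-AS1 on the other strand.

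CDKN2B (chr9:22002903-22009363, minus strand) was lower than CDKN2A in T24 cells, at 0.709, 2.89 and 2.28 RPKM with siNC, 0.819, 2.41 and 2.05 RPKM with siACAT1-1 and 0.984, 2.35 and 2.65 RPKM with siACAT1-2. Replicate 1 was the lowest of each T24 group. In UM-UC-3 cells 1 of 9 libraries held CDKN2B counts, namely 2 in replicate 1 of siACAT1-2. With siNC it was at least 231-fold higher in T24 with a limit of 3 counts over the group and at least 115-fold with 6. CDKN2B too passed the filter only through T24, so no p-value between the lines is printed. A count of 0 over the UM-UC-3 siNC group allows up to 0.00811 RPKM of CDKN2B and 0.00760 RPKM of CDKN2A, for counting error only.

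The interval with so few UM-UC-3 counts had edges among the genes around it. Within 1500000 bases of CDKN2A or CDKN2B lie 38 genes of the table. The 15 from MTAP to DMRTA1, a stretch of 653198 bases, summed to 24 counts over the 9 UM-UC-3 libraries and 17300 over the 9 T24 libraries. No UM-UC-3 library had more than 4 counts of any of these 15 genes, and 8 of them had none in all 9. MTAP, which recycles the sulfur of methionine from polyamine synthesis, had 10 counts in UM-UC-3 and 5816 in T24. CDKN2B-AS1, the long noncoding RNA ANRIL, had 0 and 296, and the transcription factor gene DMRTA1 had 0 and 307.

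Of the 23 genes of the window outside that stretch, 10 were counted in all 9 UM-UC-3 libraries. KLHL9, an adaptor of a ubiquitin ligase, had 2866 counts in UM-UC-3 and 2398 in T24, and FOCAD had 5170 and 2252. MLLT3 was higher in UM-UC-3, with 6861 counts against 559. On the other side, LINC01239 had 99 counts in UM-UC-3 and 736 in T24. RNA counts were all that was measured here, so loss of the DNA and silence of intact genes cannot be told apart.

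**Figure D1:**
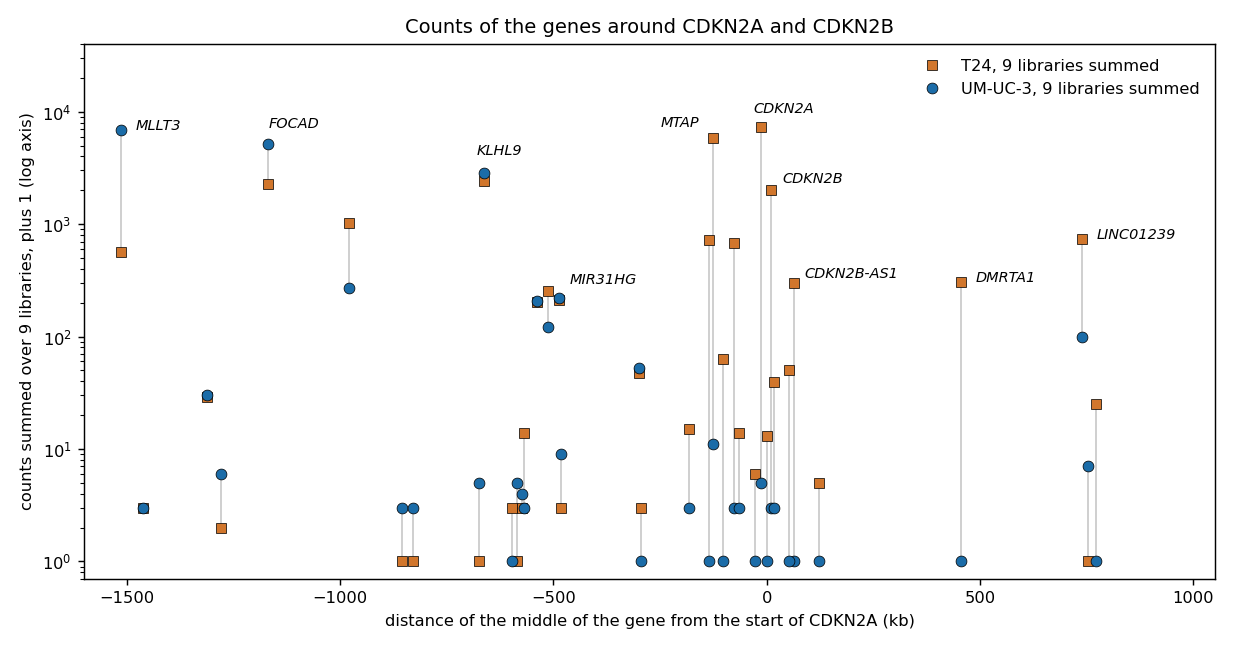
Counts summed over the 9 libraries of each cell line, plus 1 on a log axis, for the 38 genes around CDKN2A and CDKN2B, placed by the distance of each gene's middle from the start of CDKN2A in kb. The 15 genes from MTAP to DMRTA1 sit near the floor in UM-UC-3 (24 counts in all) and sum to 17300 in T24, while KLHL9, FOCAD and MLLT3 stay counted in UM-UC-3 (2866, 5170 and 6861).

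CDKN2C, the INK4 gene for p18, was the highest INK4 member in UM-UC-3 cells. Its siNC libraries had 16.2, 24.04 and 14.1 RPKM in UM-UC-3 and 9.83, 0.973 and 5.73 RPKM in T24. The 3 UM-UC-3 libraries were all above the T24 ones, but T24 differed widely between replicate numbers, with replicate 2 at 0.699 to 0.973 RPKM whichever siRNA was used. The line difference with siNC was 3.30-fold (log2 1.72, SE 0.85, adjusted p = 0.114), and with the replicate block it was 4.86-fold (log2 2.28, SE 0.22, adjusted p = 1.35e-08). With siACAT1-2 it was called without the block as well (log2 2.29, SE 0.87, adjusted p = 0.0418), a call that was lost when any 1 of 8 libraries was left out (adjusted p up to 0.125, without T24 siACAT1-2 replicate 2), and with siACAT1-1 in the block alone (log2 2.21, SE 0.22, adjusted p = 3.29e-08, against 0.0779 without). Without the block that last difference was called when UM-UC-3 siACAT1-1 replicate 3, T24 siNC replicate 2 or T24 siACAT1-1 replicate 1 was left out (adjusted p = 0.0488, 0.0484 and 0.0434).

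CDKN2D, the gene for p19, hardly separated the lines. It stood at 3.21, 3.03 and 4.67 RPKM in UM-UC-3 siNC libraries and at 3.42, 2.88 and 4.32 RPKM in T24 siNC libraries, and the groups overlapped. Its line difference was 0.08 on the log2 scale (SE 0.29, adjusted p = 0.854).

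CDKN1B, the gene for p27, was the member with the steadiest excess in UM-UC-3 cells. The siNC libraries had 12.9, 14.6 and 20.3 RPKM in UM-UC-3 and 5.21, 6.02 and 7.04 RPKM in T24, without overlap. The excess was 2.70-fold with siNC (log2 1.43, SE 0.24, adjusted p = 0.000136), 1.90-fold with siACAT1-1 (adjusted p = 0.00444) and 3.17-fold with siACAT1-2 (adjusted p = 3.20e-05). It stayed between 1.24 and 1.55 on the log2 scale with siNC when each library was left out in turn.

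CDKN1A, which encodes p21, was uneven in T24. With siNC its T24 libraries had 0.724, 7.29 and 2.15 RPKM, and the UM-UC-3 libraries 2.65, 2.57 and 2.88 RPKM, inside the T24 range. Replicate 2 of T24 held 6.41 to 8.06 RPKM in the 3 groups, above all other T24 libraries (0.724 to 3.45 RPKM). The siNC line difference was not called (log2 -0.24, SE 0.69, adjusted p = 0.804) and turned positive with the replicate block (log2 0.26, SE 0.24, adjusted p = 0.350). With the block, CDKN1A was higher in UM-UC-3 with siACAT1-1 (log2 1.00, SE 0.23, adjusted p = 0.000883, against 0.555 without) and with siACAT1-2 (log2 0.61, SE 0.23, adjusted p = 0.0254, against 0.644 without). Without T24 siACAT1-1 replicate 2 the siACAT1-1 difference was called without the block too (log2 1.83, adjusted p = 0.0380).

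CDKN1C, the imprinted gene for p57, was barely expressed in either line, at 0.274, 0.145 and 0.551 RPKM in UM-UC-3 siNC libraries and 0.135, 0.274 and 0.359 RPKM in T24 siNC libraries, from 12 to 44 counts a library. The lines overlapped (log2 0.39, SE 0.53, adjusted p = 0.576). KCNQ1OT1, the antisense RNA of the same imprinted domain, stood at 0.0363 to 0.0668 RPKM over the 9 UM-UC-3 libraries and 0 to 0.00173 RPKM over the 9 T24 libraries. KCNQ1OT1 had 0 to 4 counts in a T24 library and was picked after its values were seen, so no test of it is given.

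CDKN3 was the highest member with siNC in both lines, at 26.1, 26.9 and 22.3 RPKM in UM-UC-3 and 23.1, 16.5 and 23.3 RPKM in T24. The groups overlapped (log2 0.30, SE 0.34, adjusted p = 0.502). With siACAT1-1 the UM-UC-3 libraries, at 21.3, 23.6 and 18.8 RPKM, were 2.58-fold above the T24 ones at 9.16, 5.29 and 10.7 RPKM (log2 1.37, SE 0.34, adjusted p = 0.00393). With siACAT1-2 the UM-UC-3 libraries had 20.8, 22.9 and 18.1 RPKM and the T24 ones 15.2, 5.28 and 14.8 RPKM (log2 0.77, SE 0.34, adjusted p = 0.0737). That last difference was called with the replicate block (log2 0.90, SE 0.15, adjusted p = 3.36e-05), and without the block when replicate 1 of T24 siACAT1-2 (log2 1.06, adjusted p = 0.0348) or replicate 2 of T24 siACAT1-1 (log2 0.79, adjusted p = 0.0474) was left out.

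**Figure D2:**
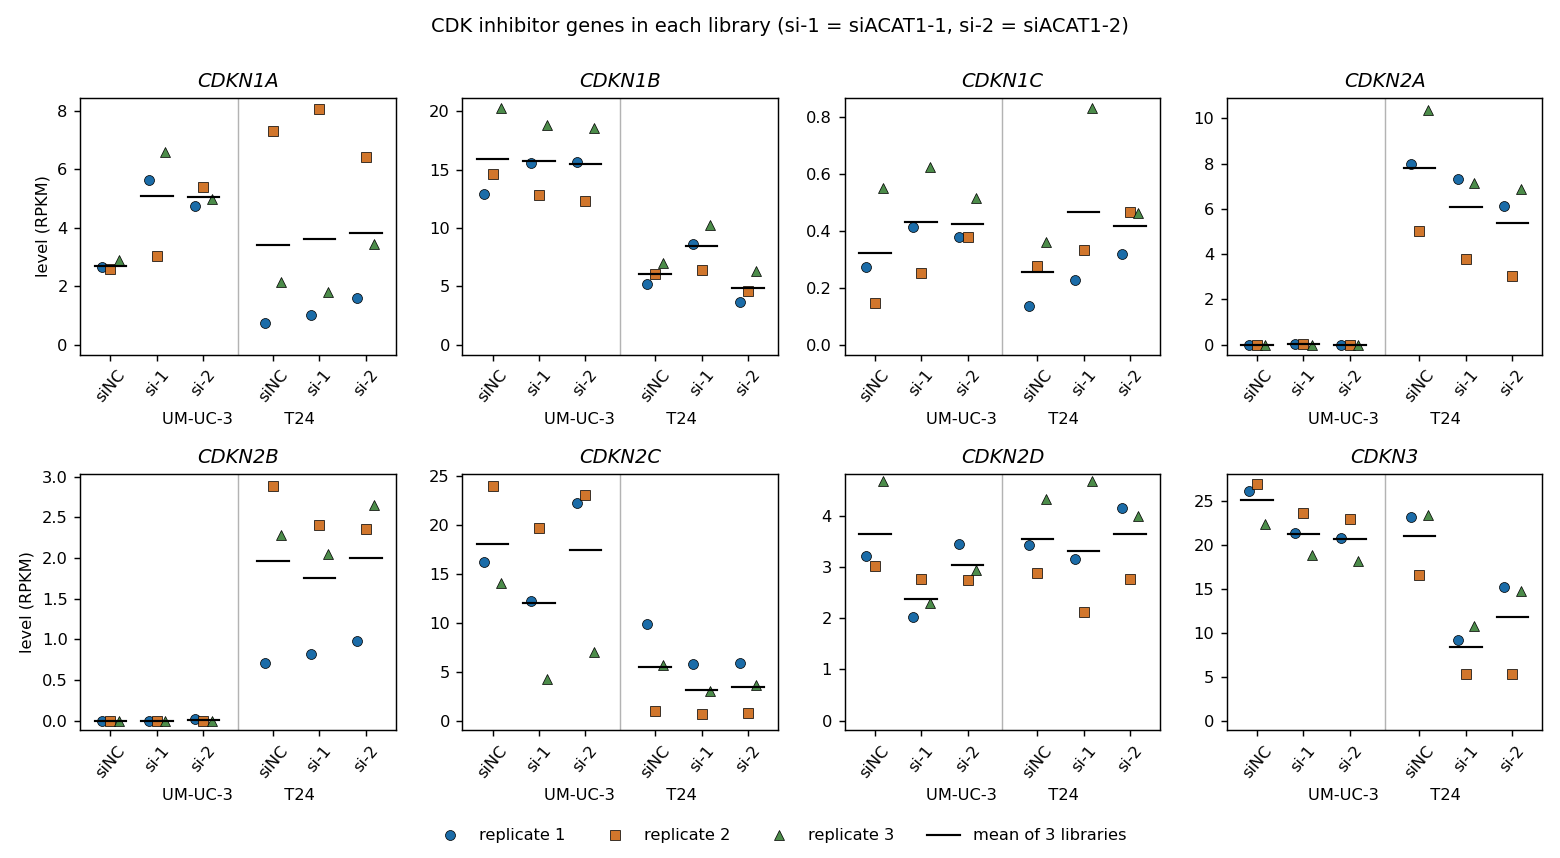
Level in RPKM of each CDK inhibitor gene in the 18 libraries, with points for replicates 1, 2 and 3 and a bar for the mean of 3 libraries, UM-UC-3 on the left of each panel and T24 on the right. CDKN2A and CDKN2B lie at or near 0 in UM-UC-3, CDKN1B is higher in every UM-UC-3 siNC library (12.9 to 20.3 RPKM) than in T24, and replicate 2 of T24 stands high for CDKN1A and low for CDKN2C.

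In all, 3 of 8 members were called between the lines with siNC (1 higher and 2 lower in UM-UC-3), beside 44.3% of all 20144 genes tested, and 4 of 8 with the replicate block, beside 61.7%. With siACAT1-1 it was 4 of 8 beside 44.4%, and 6 of 8 beside 61.6% with the block. With siACAT1-2 it was again 4 of 8 beside 44.7%, and 6 of 8 beside 62.4% with the block. Each count includes CDKN2A and CDKN2B, which passed the filter only through T24, where they are high, so their calls add no support. With this pair included the shares were near those of all genes and single out nothing about the family. Among the other members CDKN1B was called without the block with every siRNA, joined by CDKN3 with siACAT1-1 and by CDKN2C with siACAT1-2. With the block CDKN1B and CDKN2C were called with every siRNA, and CDKN1A and CDKN3 with siACAT1-1 and siACAT1-2. Ordered by mean RPKM with siNC, UM-UC-3 ran CDKN3, CDKN2C, CDKN1B, CDKN2D, CDKN1A and CDKN1C, and the libraries of the first 3 overlapped between neighbours. T24 ran CDKN3, CDKN2A, CDKN1B, CDKN2C, CDKN2D, CDKN1A, CDKN2B and CDKN1C, where each gene from CDKN2A to CDKN1A overlapped the next.

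**Figure D3:**
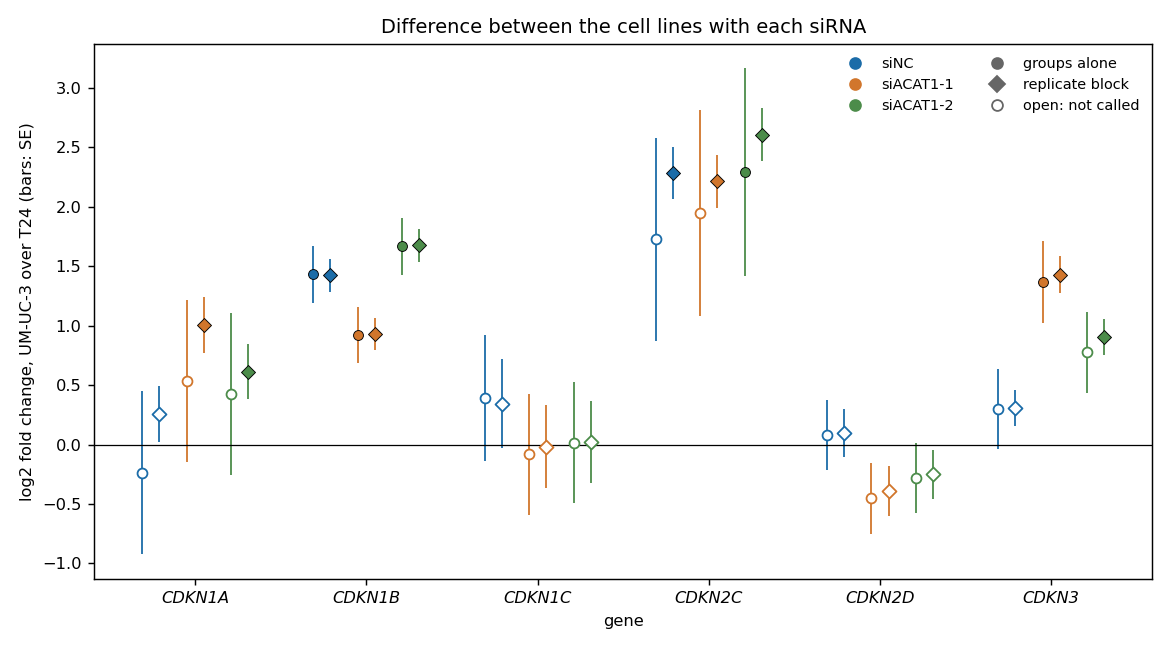
Log2 fold change of UM-UC-3 over T24 with its SE for the 6 members counted in both lines, by siRNA (colours), from the groups alone (circles) and with the replicate block (diamonds), filled where the adjusted p was under 0.05. CDKN1B is above 0 and filled in all 3 comparisons, while CDKN2C reaches an adjusted p under 0.05 in all 3 with the block and in 1 without it.

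The second question was whether the siRNAs against ACAT1 moved these genes. CDKN3 fell in T24 cells. The T24 siNC libraries had 23.1, 16.5 and 23.3 RPKM, above all of those with siACAT1-1 (9.16, 5.29 and 10.7 RPKM) and siACAT1-2 (15.2, 5.28 and 14.8 RPKM). Relative to siNC the fold was 0.403 with siACAT1-1 (log2 -1.31, SE 0.34, adjusted p = 0.126) and 0.574 with siACAT1-2 (log2 -0.80, SE 0.34, adjusted p = 0.503). With the replicate block both were called, at log2 -1.36 (SE 0.16, adjusted p = 4.04e-05) and -0.93 (SE 0.15, adjusted p = 0.000826). Without the block the siACAT1-1 change was also called by DESeq2 (log2 -1.31, adjusted p = 0.0182) and without UM-UC-3 replicate 3 and T24 replicate 2 (log2 -1.24, adjusted p = 0.00168), and it ranged from -1.53 to -1.06 with 1 library left out at a time (adjusted p = 0.0375 to 0.385, called without T24 siACAT1-2 replicate 2).

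In UM-UC-3 cells the CDKN3 levels after siRNA overlapped those with siNC, with folds of 0.846 for siACAT1-1 and 0.798 for siACAT1-2 (adjusted p = 0.997 and 1.00, and 0.405 and 0.339 with the replicate block). Set against the siNC library of the same number, CDKN3 was lower in 12 of 12 pairs, by ratios of 0.796 to 0.878 in UM-UC-3 and 0.320 to 0.658 in T24. Both siRNAs of a line share its siNC libraries, so these pairs, and those of the members below, are not independent replicates. How many of all genes had pairs so one-sided, or siRNA groups without overlap with siNC, was not counted. This holds for CDKN3 and for the members below. The difference between the lines' effects was not called, at 0.77 on the log2 scale (SE 0.41, adjusted p = 1.00) and 0.86 with the replicate block (SE 0.19, adjusted p = 0.0776). Over the 4 comparisons, whose controls are shared within a line, the mean change was log2 -0.67 (SE 0.20, adjusted p = 0.222), and with the block -0.72 (SE 0.091, adjusted p = 4.80e-05).

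CDKN1A stood higher after siRNA in UM-UC-3 cells. Against 2.65, 2.57 and 2.88 RPKM with siNC, the siACAT1-1 libraries held 5.61, 3.03 and 6.57 RPKM and the siACAT1-2 libraries 4.74, 5.40 and 4.98 RPKM, and neither group overlapped siNC. The folds were 1.87 and 1.82 (adjusted p = 0.980 and 1.00). With the replicate block siACAT1-1 was called (log2 0.87, SE 0.23, adjusted p = 0.0428) and siACAT1-2 was not (log2 0.87, SE 0.23, adjusted p = 0.0626). In T24 the groups overlapped and 4 of 6 pairs were higher. The mean over the 4 comparisons was log2 0.52 (SE 0.43, adjusted p = 0.722), or 0.60 with the block (SE 0.15, adjusted p = 0.00978). Without the block it went from 0.20 without T24 siACAT1-1 replicate 2 to 1.12 without T24 siNC replicate 2.

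CDKN2C was lower than its paired siNC library in 11 of 12 pairs, and the exception was UM-UC-3 replicate 1 with siACAT1-2. In UM-UC-3 it stood at 12.2, 19.7 and 4.27 RPKM in the libraries of siACAT1-1 and at 22.3, 23.0 and 7.04 RPKM in those of siACAT1-2, overlapping siNC. The T24 libraries had 5.82, 0.699 and 2.99 RPKM with siACAT1-1 and 5.94, 0.771 and 3.65 RPKM with siACAT1-2, also overlapping siNC. The mean change of log2 -0.53 (SE 0.50, adjusted p = 0.771) was called with the replicate block, at -0.60 (SE 0.13, adjusted p = 0.00420). Without the block it went from -0.79 without T24 siNC replicate 2 to -0.14 without T24 siNC replicate 1. In the block it was called with siACAT1-1 in UM-UC-3 (log2 -0.82, adjusted p = 0.0350) and in T24 (log2 -0.75, adjusted p = 0.0305), but with siACAT1-2 in neither (adjusted p = 0.645 and 0.112).

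CDKN2A in T24 cells was lower than its paired control in 6 of 6 pairs, by ratios of 0.604 to 0.916, though the groups overlapped. The change was log2 -0.35 with siACAT1-1 (adjusted p = 0.808) and -0.51 with siACAT1-2 (adjusted p = 0.811). With the replicate block siACAT1-2 was called (log2 -0.54, SE 0.13, adjusted p = 0.0197) and siACAT1-1 was not (adjusted p = 0.0950). Its neighbour MTAP had 318 to 447 counts in T24 with siACAT1-2, below the 708 to 996 with siNC and the 647 to 764 with siACAT1-1, and the change with siACAT1-2 was called with the block alone (fold 0.499, adjusted p = 0.000309, against 0.280). CDKN2B had 3 of 6 pairs higher and 3 lower, with log2 changes of -0.12 and 0.06 (adjusted p = 0.972 and 1.00).

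CDKN1B was the member on which the siRNAs parted. In T24 cells siACAT1-1 gave 8.66, 6.37 and 10.3 RPKM and siACAT1-2 gave 3.65, 4.60 and 6.29 RPKM, without overlap, around 5.21, 6.02 and 7.04 RPKM with siNC. In UM-UC-3 cells the siRNAs overlapped, at 15.6, 12.8 and 18.8 RPKM and 15.6, 12.3 and 18.6 RPKM. Over both lines siACAT1-2 was below siACAT1-1 by log2 -0.43 (SE 0.17, adjusted p = 0.184), which was called with the replicate block (SE 0.097, adjusted p = 0.00345). Against siNC in T24, siACAT1-1 was called with the block (log2 0.47, SE 0.14, adjusted p = 0.0269) and siACAT1-2 was not (log2 -0.33, SE 0.14, adjusted p = 0.159).

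CDKN1C and CDKN2D were not called in any comparison of an ACAT1 siRNA with siNC, with or without the block. CDKN1C was higher in 11 of 12 pairs at these low counts (mean log2 0.60, SE 0.32, adjusted p = 0.540, and 0.0691 with the block). CDKN2D was at 2.03, 2.78 and 2.30 RPKM in UM-UC-3 libraries of siACAT1-1, each below the siNC libraries (log2 -0.61, SE 0.30, adjusted p = 0.946, and 0.119 with the block).

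**Figure D4:**
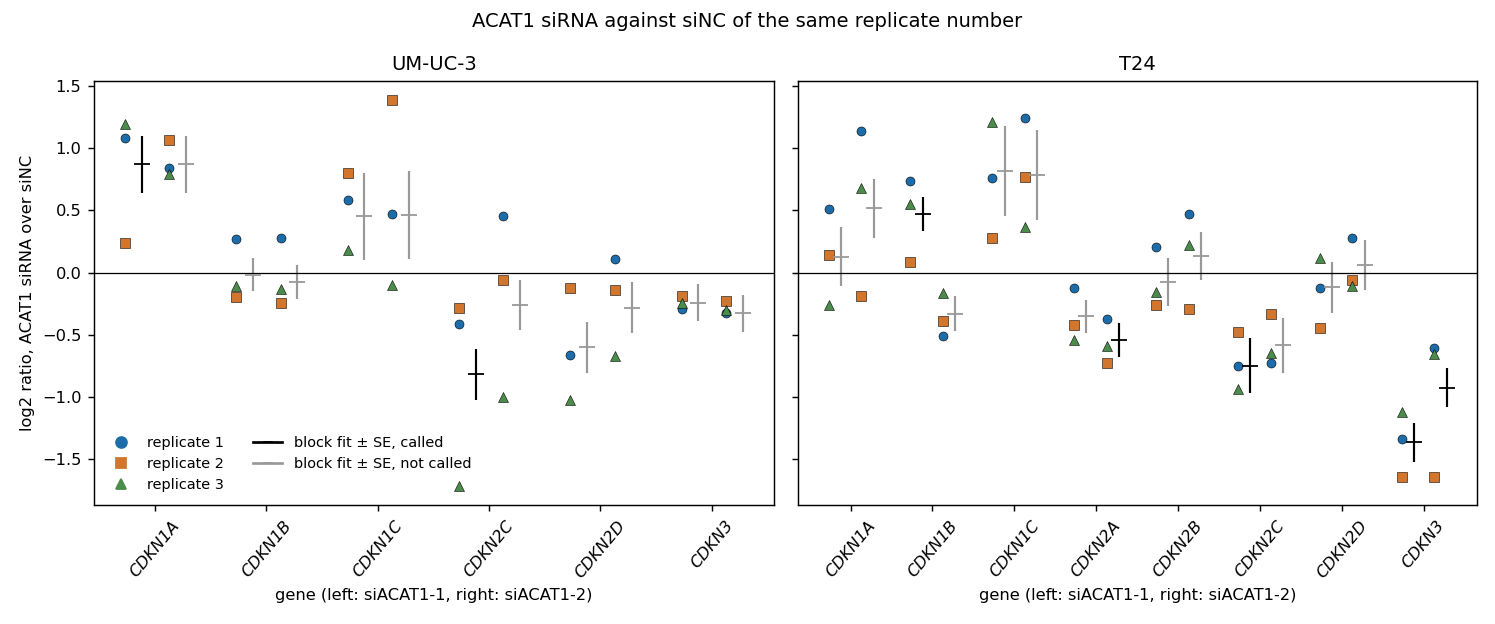
Log2 ratio of each library with an ACAT1 siRNA to the siNC library of the same replicate number (points) and the change fitted with the replicate block with its SE (bars, black where the adjusted p was under 0.05), for UM-UC-3 and T24. All 12 points of CDKN3 lie below 0, and those of CDKN1A in UM-UC-3 all lie above 0.

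Without the block, edgeR called 0 of 8 members in each of the 4 comparisons with siNC. CDKN2A and CDKN2B had at most 2 counts in a UM-UC-3 library, too few for a call there. The same holds for the comparisons that join both lines, so only the 6 members counted in both lines were open to a call in these. In UM-UC-3 the background was 0.00993% of genes for siACAT1-1 and 0.0546% for siACAT1-2, and in T24 it was 0.124% and 0.268%. At an unadjusted p under 0.05 there was 1 member, CDKN3, in each T24 comparison and none in UM-UC-3, and DESeq2 called 1 member with siACAT1-1 in T24 and none in the other 3. With the replicate block 2 and 0 members were called in UM-UC-3, beside 3.06% and 1.36% of genes, and 3 and 2 in T24, beside 13.9% and 8.48%. For the mean of the 4 comparisons 0 members were called beside 0.223%, with CDKN3 alone under an unadjusted 0.05 and 0 by DESeq2, and the block called 3 of the 6 members counted in both lines beside 12.4%. For the difference between the lines' effects 0 members were called without the block (background 0%, 0 at an unadjusted p under 0.05, 0 by DESeq2) and 0 with it (background 0.104%). For siACAT1-2 against siACAT1-1 it was 0 members beside 2.56%, with CDKN1B alone at an unadjusted p under 0.05 and 0 by DESeq2, and 1 with the block beside 20.6%.

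The genes that CDK inhibitors act on were described by the same tests. With siNC 44.3% of all genes were called between the lines, and 61.7% with the replicate block. Of 12 CDKs and cyclins, 4 were higher and 1 lower in UM-UC-3, and 6 and 4 with the block. CCND2, a D-type cyclin and partner of CDK4 and CDK6, stood at 4.37 to 10.4 RPKM over the 9 UM-UC-3 libraries and 0 to 0.0333 RPKM in T24. It passed the filter only through UM-UC-3, where it is high. No p-value is therefore printed for it, and its place among the 4 higher genes adds no support. Its relative CCND3 was lower in UM-UC-3 (log2 -1.61, SE 0.53, adjusted p = 0.0204). CCNB2, a mitotic cyclin, was higher in UM-UC-3 (log2 1.75, SE 0.41). Of 13 RB and E2F genes 3 were higher and 1 lower, but 4 higher and 5 lower with the block, with E2F2 at log2 1.94 (SE 0.52) and E2F7, a repressor, at -2.19 (SE 0.40). Of 11 genes of CDK inhibitor turnover 0 were higher and 2 lower, RNF4 (log2 -0.96) and DTL (log2 -0.89), the latter part of the ligase that degrades p21. With the block 1 was higher, CUL1 (log2 0.27), and 2 lower.

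Of 27 regulators of CDK inhibitor transcription 9 were higher and 3 lower in UM-UC-3, and 18 and 4 with the block. FOXO1, an activator of CDKN1B, was higher (log2 1.94, SE 0.32). TFAP2C was lower (log2 -5.19, SE 0.47). BMI1 and EZH2, Polycomb repressors of the CDKN2A locus, were at log2 1.08 each. The median log2 fold change was 0.36 over the regulators, beside 0.03 over all genes tested. Without the block the share of regulators called was near that of all genes.

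After ACAT1 siRNA, edgeR without the block called 0 of 79 genes of these lists and those of TGF-beta and FOXO targets in the mean of the 4 comparisons, with 8 at an unadjusted p under 0.05, and DESeq2 called 1, CKS1B. The replicate block called 12.4% of all genes in this mean. With it 0 of 12 CDKs and cyclins rose and 5 fell, namely CCNB1 (log2 -0.79, SE 0.10), CCNB2 (-0.59, SE 0.09), CCNA2 (-0.42, SE 0.08), CDK1 (-0.41, SE 0.09) and CCND1 (-0.34, SE 0.08). Of 13 RB and E2F genes 1 rose (E2F6, log2 0.25) and 3 fell, among them E2F8 (log2 -0.66) and E2F1 (log2 -0.51). Of 11 turnover genes 0 rose and 2 fell, CKS1B, the cofactor of SKP2 in p27 degradation (log2 -0.55), and CCNF (log2 -0.52). The median in the block was -0.24 for CDKs and cyclins, beside 0.00 for all genes.

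Of 27 transcription regulators 0 rose and 3 fell in the replicate block, near the 12.4% of all genes, namely SMAD3 (log2 -0.32), EZH2 (log2 -0.30) and SP1 (log2 -0.25). Among 7 TGF-beta targets 2 rose, TGFBI (log2 0.83) and SMURF2 (log2 0.29), and 0 fell. Of 10 FOXO targets 2 rose, BCL6 (log2 0.74) and SOD2 (log2 0.42), and 0 fell.

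The genes whose levels ran closest to each member were taken from 9138 or 9139 genes over the 18 libraries, as Pearson's r of log2 CPM less the mean of the cell line, which the siRNA groups and replicate numbers shape together. CDKN3 was nearest to the mitotic genes CCNB1 (r = 0.979), CCNB2 (0.969) and KIF2C (0.960). CDKN2C was nearest to LRRC45 (0.977), CENPJ (0.975) and KIF22 (0.971). For CDKN1A they were XXbac-BPG252P9.10 and IER3 (0.929 each) and ODF2L (0.913), and for CDKN2D RAB34 (0.910), LINC01578 (0.899) and RP4-706A16.3 (0.884). CDKN1C came next to FOXO4 (0.891), IKBKB (0.855) and ZNF277 (0.852), and CDKN1B to TTC37 and BRD3 (0.848 each) and a gene whose symbol had become a date (0.845). The 9p21 members, nearly without counts in UM-UC-3, were nearest to AFAP1L1 (0.871), ARHGAP11B (0.836) and SLC2A1 (0.819) for CDKN2A and RHOF and ZBTB1 (0.799 each) and BAIAP2L1 (0.787) for CDKN2B.

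CCNB1, whose product drives entry into mitosis, followed CDKN3 library by library. It was the gene most like CDKN3 in these same libraries, so its shared order and change follow from that choice and are no separate support. In T24 it went from 77.6, 53.6 and 76.9 RPKM with siNC to 28.2, 16.4 and 41.1 RPKM with siACAT1-1 and 47.3, 15.8 and 55.5 RPKM with siACAT1-2. The UM-UC-3 levels went from 67.1, 67.4 and 48.9 RPKM to 50.4, 54.3 and 36.1 RPKM and to 53.8, 51.6 and 33.7 RPKM. In both genes replicate 2 was the lowest library of each T24 group, and replicate 3 the lowest of each UM-UC-3 group. In T24 CCNB1 was called with the replicate block for siACAT1-1 (log2 -1.37, SE 0.17, adjusted p = 7.17e-05, against 0.213 without) and siACAT1-2 (log2 -0.96, SE 0.17, adjusted p = 0.00144, against 0.637 without).

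**Figure D5:**
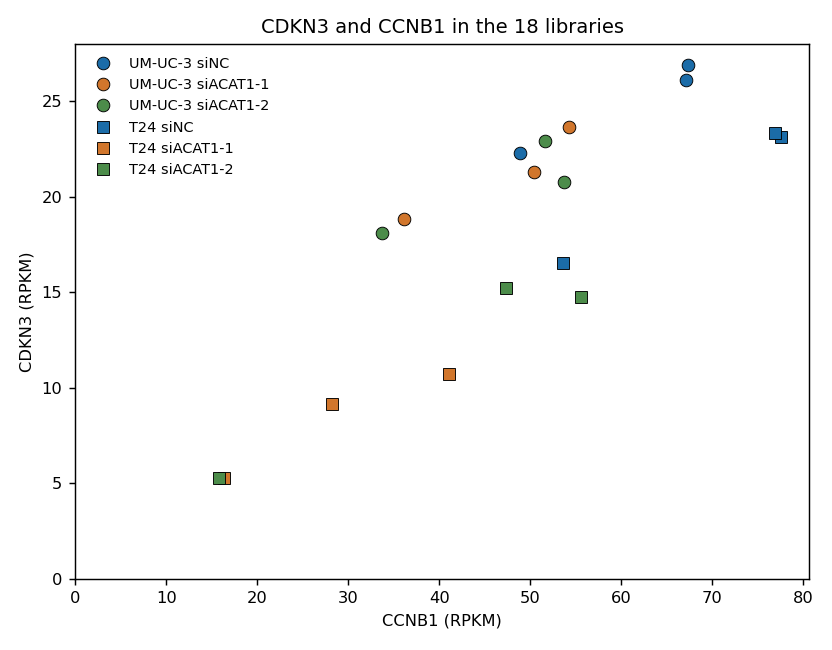
CDKN3 against CCNB1 in RPKM in the 18 libraries, circles for UM-UC-3 and squares for T24, coloured by siRNA. The lowest points are replicate 2 of T24 with either ACAT1 siRNA, near 5.3 RPKM of CDKN3 and 16 RPKM of CCNB1, and the 2 highest points of each line are siNC libraries.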

How the data were processed

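RNA-seq was done by the authors on 18 libraries of UM-UC-3 and T24 cells with siNC, siACAT1-1 or siACAT1-2. Stranded libraries were read on an Illumina NovaSeq. Per the submitters' processing notes, Trimmomatic 0.36, STAR 2.5.3 and featureCounts of Subread 1.5.1 were used with GRCh38. The annotation release and the strand setting are not given in the sources used here. The authors deposited whole-number counts of 39496 genes and the RPKM made from them, which equal counts scaled to gene length and to the total of counted reads. Of counts from 1 to 10, 74.4% were even, against 54.2% from 201 to 1000, so mates of a pair may have been counted singly and limits are given for 3 and 6 counts. Column names gave the library of each column.

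Counts were tested with edgeR 4.0.16 in R 4.3.3 (TMM, filterByExpr, quasi-likelihood, 6 group coefficients, Benjamini-Hochberg over 20144 genes, adjusted p under 0.05). Levels are deposited RPKM, and log2 CPM for likeness used a prior count of 2 and a mean of at least 3. In simulated counts the test was checked for recovery of known changes. Same-number libraries within a line correlated in their deviations from the group means in all 9 pairs of UM-UC-3 (r 0.115 to 0.576) and of T24 (0.356 to 0.686), across genes, which are not independent replicates. Pairs of different numbers ran from r -0.545 to 0.269 in UM-UC-3, overlapping the same-number range, and from -0.567 to 0.210 in T24, below it. The labels do not say what a number marks. The pairing comes from these values, and the replicate block used the number within the line. The members, lists and tests were chosen with earlier results of these data known. Named were all members, the genes within 1500000 bases of CDKN2A or CDKN2B, ACAT1, list genes called between the lines with siNC or in the mean of the 4 knockdown comparisons (up to 3 each way) and the 3 genes most like each member. CDK1, CCND1, KCNQ1OT1 and further list genes beyond that were chosen after their values were seen. A gene of the list of regulators and a further list are not reported here. Alternatives were other scalings, no filter, DESeq2 1.42.0, the replicate block and libraries left out.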

Additional observations from a re-analysis of the deposited data

How the results depend on the processing

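With RLE size factors no count or change below moved past its limit. For the log2 fold changes of the members, 69 of 70 kept their direction and side of the threshold under DESeq2 and 64 of 70 without the filter on low counts, and the replicate block added 16 calls, turned 1 sign and ended none. With the block the genes called were 617 and 273 in UM-UC-3 (siACAT1-1 and siACAT1-2), 2799 and 1708 in T24, 2500 for their mean, 21 for the difference between the lines and 4141 between the siRNAs, against 2, 11, 25, 54, 45, 0 and 515 without it. CDK inhibitor genes called with the block were 2, 3, 2, 3 and 1 for siACAT1-1 in UM-UC-3, siACAT1-1 and siACAT1-2 in T24, their mean and the siRNA difference, and CDKN1A between the lines with siNC turned to log2 0.26. For the members the block changed no call other than those printed beside the results, and it moved the counts of list genes given there. DESeq2 called 18, 39, 399, 254, 318, 1 and 1321 genes in the same order, and 1 CDK inhibitor with siACAT1-1 in T24. Without the filter the genes called were 167, 58, 463, 180, 383, 29 and 884, with 1 CDK inhibitor for siACAT1-1 in T24 and 2 in the mean. Library totals alone gave 6 genes in UM-UC-3 and 32 in T24 with siACAT1-2.

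The 3 libraries of UM-UC-3 replicate 3 and the 3 of T24 replicate 2 stood apart. Without these 6, genes called were 1251 and 403 in T24, 512 for the mean, 2 for the difference between the lines and 1687 between the siRNAs, with 1 CDK inhibitor, CDKN3, for siACAT1-1 in T24 and for the mean. Signs turned, none of them called, for CDKN1A (log2 0.89), CDKN1C (-0.21) and CDKN2D (-0.31) between the lines with siNC, CDKN1C with siACAT1-2 (-0.054), CDKN1A (-0.015) and CDKN2D (0.0016) for siACAT1-1 in T24, CDKN1B for siACAT1-1 (0.045) and siACAT1-2 (0.014) in UM-UC-3 and CDKN2C for siACAT1-2 there (0.16). With the replicate block as well, an alternative chosen after seeing the data, genes called were 64 and 182 in UM-UC-3, 3507 and 1584 in T24, 2122 for the mean, 34 between the lines and 3915 between the siRNAs. CDK inhibitors called were then 5 and 7 between the lines with siNC and siACAT1-1, and 3 each for both siRNAs in T24, the mean and the siRNA difference. Turned there were CDKN1A (log2 1.03), CDKN1C (-0.13) and CDKN2D (-0.30) between the lines with siNC, CDKN1C with siACAT1-2 (-0.0089), CDKN1B for siACAT1-1 (0.037) and siACAT1-2 (0.0042) and CDKN2C for siACAT1-2 (0.20) in UM-UC-3. The cause was not tested.

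With 1 library left out at a time (without the block), genes called ranged from 2 to 4 and 2 to 15 in UM-UC-3, 2 to 452 and 13 to 89 in T24, 6 to 143 for the mean, 0 to 1 between the lines' effects and 165 to 900 between the siRNAs. The lowest counts in T24 and for the mean came without T24 siNC replicate 1, and the highest without a T24 library of replicate 2. CDK inhibitors called ranged from 0 to 1 for siACAT1-1 in T24. Between the lines with siNC the log2 fold change ranged from -0.71 to 0.92 for CDKN1A, -0.21 to 0.74 for CDKN1C and -0.13 to 0.18 for CDKN2D, and CDKN1C ranged from -0.45 to 0.64 with siACAT1-1 and -0.11 to 0.11 with siACAT1-2. In UM-UC-3 it ranged from -0.16 to 0.17 and -0.20 to 0.11 for CDKN1B, and from -0.35 to 0.32 for CDKN2C with siACAT1-2. In T24 with siACAT1-1 it ranged from -1.19 to 1.30 for CDKN1A, -0.51 to 0.22 for CDKN2B and -0.42 to 0.17 for CDKN2D. With siACAT1-2 it ranged from -0.36 to 1.37 for CDKN1A, -0.33 to 0.39 for CDKN2B, -1.37 to 0.14 for CDKN2C and -0.11 to 0.24 for CDKN2D. For the mean CDKN1B ranged from -0.043 to 0.11, CDKN1A from 0.20 to 1.12 and CDKN2C from -0.79 to -0.14. For the difference between the lines' effects the range was -0.44 to 1.40 for CDKN1A, -0.26 to 0.053 for CDKN1B, -0.77 to 0.18 for CDKN1C and -0.39 to 0.94 for CDKN2C. For the difference between the siRNAs it was -0.25 to 0.67 for CDKN1A, -0.26 to 0.26 for CDKN1C and -0.033 to 0.73 for CDKN2C. Leaving out 1 of 3 libraries cannot move a mean RPKM level by more than its SD. That the levels stayed within it therefore shows nothing about their stability. The counts of CDKN1C, and of CDKN2A and CDKN2B in UM-UC-3, were too few to show small changes, and no fold change of the last pair between siRNAs in UM-UC-3 was used.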
